A study of Mus musculus with 6 samples.

Results

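The genes described here are 10 that mark the secretory and hormone-sensing cells of the mammary gland: 4 lineage transcription factors (Elf3, Elf5, Gata3 and Foxa1), 2 hormone receptors (Esr1 and Pgr) and 4 milk proteins (Csn2, Csn3, Wap and Lalba). They were chosen by name, and every probe set that the platform annotation ties to exactly 1 of these symbols was read, which gave 17 of 45037 non-control probe sets and 10 of 18193 genes. The study sorted cells carrying green fluorescent protein (GFP) from mouse lungs. The cells were MVT1, a metastatic line derived from a mammary tumour of a mouse with Myc and Vegf transgenes driven by the MMTV promoter, and they were put into a vein of FVB/N mice, the strain of their origin. In the first group, GW2580, which blocks the kinase of the CSF1 receptor, a receptor found chiefly on macrophages, was given by gavage at 160 mg/kg daily from 1 week after injection, and cells were sorted at 2 weeks. The second group received vehicle and was sorted at 2 weeks, a stage the labels call macrometastatic. The third is labelled as control, called vehicle-treated in the design text, and was sorted at 1 week, at the micrometastatic stage. All 3 groups therefore share the line, the GFP tag, the host strain and the lung, and each holds 2 arrays. The vehicle groups came from 2 mice each. How many mice each GW2580 array represents is not stated in those texts. P-values therefore measure the spread between arrays, which may be technical.

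In the mammary gland the luminal layer holds hormone-sensing cells, which use Foxa1, Esr1 and Pgr, and alveolar precursors, which become milk-secreting cells in pregnancy. Gata3 is a zinc-finger factor that keeps luminal cells differentiated. Elf5 is an ETS-family factor that sets alveolar fate, and Elf3 is an epithelial ETS factor. Prolactin, acting through the kinase JAK2 and the factor STAT5, and glucocorticoids switch on the milk protein genes late in pregnancy and in lactation. Csn2 encodes β-casein, Csn3 the κ-casein that stabilises casein micelles, Wap the whey acidic protein and Lalba α-lactalbumin, the regulatory subunit of lactose synthase.

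The promoters of the milk protein genes are where prolactin and ETS-factor signals meet, and the stretches of 250 bases before the annotated start of 3 of them are shown for that reason. They come from RefSeq on GRCm38.p6 and are written 5′ to 3′ on the gene's own strand, the minus strand in each case. Csn2 lies at chr5:87699426-87699675, Wap at chr11:6638650-6638899 and Lalba at chr15:98482684-98482933. Capitals mark the STAT5 element TTCNNNGAA in Csn2 and the ETS core GGAAG, or its reverse complement CTTCC, in Wap and Lalba.
Csn2: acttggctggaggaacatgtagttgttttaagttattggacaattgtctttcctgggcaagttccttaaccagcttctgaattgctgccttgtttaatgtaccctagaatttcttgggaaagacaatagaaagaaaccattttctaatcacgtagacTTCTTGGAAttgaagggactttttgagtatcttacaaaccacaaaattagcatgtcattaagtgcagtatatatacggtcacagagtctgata
Wap: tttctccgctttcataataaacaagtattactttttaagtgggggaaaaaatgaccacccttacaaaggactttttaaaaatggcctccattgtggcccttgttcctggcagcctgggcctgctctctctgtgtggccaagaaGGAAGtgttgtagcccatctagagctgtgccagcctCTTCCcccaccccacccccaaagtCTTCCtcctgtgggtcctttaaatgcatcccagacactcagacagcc
Lalba: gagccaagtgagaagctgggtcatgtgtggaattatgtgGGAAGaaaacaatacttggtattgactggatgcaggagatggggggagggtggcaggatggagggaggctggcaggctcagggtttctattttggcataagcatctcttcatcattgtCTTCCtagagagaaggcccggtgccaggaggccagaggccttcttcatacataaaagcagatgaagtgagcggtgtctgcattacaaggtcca

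Promoter windows of 250 bases before and 50 bases after the start were found in the RefSeq table for 9 of the 10 genes. Elf5 and Esr1 have a pair each, which gave 11 windows. No window was found for Csn3, so its promoter was not searched. Both strands were searched for 5 sets of letters. The STAT5 element TTCNNNGAA occurred in 8.30% of the 32851 windows in the table, and among the members it occurred in Csn2, as TTCTTGGAA at 93 bases before the start, and in the second window of Esr1, as TTCTAGGAA at 188 bases. The short ETS core occurred in 71.4% of all windows. It lay in 5 of the 9 members: at 107, 71 and 47 bases before the start in Wap, at 211 and 93 in Lalba, and also in Elf5, Esr1 and Pgr. The forkhead element TGTTTAC, present in 3.65% of windows, occurred in Foxa1, at 141 bases before the start. The GATA elements AGATAA or TGATAA (18.6% of windows) and the oestrogen response element, a pair of inverted repeats (0.0700%), were not among the letters of any member's window. A match describes the letters of the window and does not show binding.

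The values are log2 expression values. Genes whose brightest probe set averaged at least 4.97 over the 6 arrays were tested, which left 13090 genes. Of the 10 members, 6 passed (Elf3, Gata3, Esr1, Csn3, Wap and Lalba) and 4 did not (Elf5, Foxa1, Pgr and Csn2), and 11 of the 17 member probe sets lay below that mean. A dim probe set does not show that a transcript was absent. In these sorted populations, fewer cells expressing a gene and less RNA per cell cannot be told apart. The arrays of a group correlated at 0.988 to 0.992 over the tested genes. By the control probe sets 1 array stood apart. There, replicate 2 of 2-week vehicle, beta-actin read 1.20 log2 units higher at its 3′ end than at its 5′ end, and 0.38 to 0.50 higher on the remaining arrays. For Gapdh the same difference was 0.92, and -0.13 to -0.10 on the remaining arrays.

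Epithelial identity was first read from the luminal keratins and junction genes. Krt8 and Krt18, the paired keratins of simple epithelium, averaged 13.6 and 13.1 log2 over the 6 arrays, and the epithelial surface gene Epcam averaged 7.05. The E-cadherin gene Cdh1, at 3.67, and the claudin genes Cldn4 and Cldn7, at 4.75 and 4.67, were below the tested range, while Cldn3 averaged 7.15. Some defining markers of epithelium were thus dim on these arrays. Macrophages could also be carried through a sort. Of their markers, Cd14, Cd68, Lyz2 and Csf1r averaged 10.45, 10.41, 9.37 and 7.63, while Adgre1 averaged 5.13 and Itgam 4.31, below the tested range. Of 14 tested macrophage and monocyte markers 0 passed with limma in any comparison. For GW2580 against 2-week vehicle 4 had an unadjusted p under 0.05, as had 18.0% of all genes. For 2-week against 1-week vehicle 3 had (23.6% of all genes), and for GW2580 against 1-week vehicle 1 had (17.0%). Between the vehicle groups Cd68 differed by 0.98 and Mertk by 1.04, with 5 of the 14 positive and 9 negative.

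**Figure D1:**
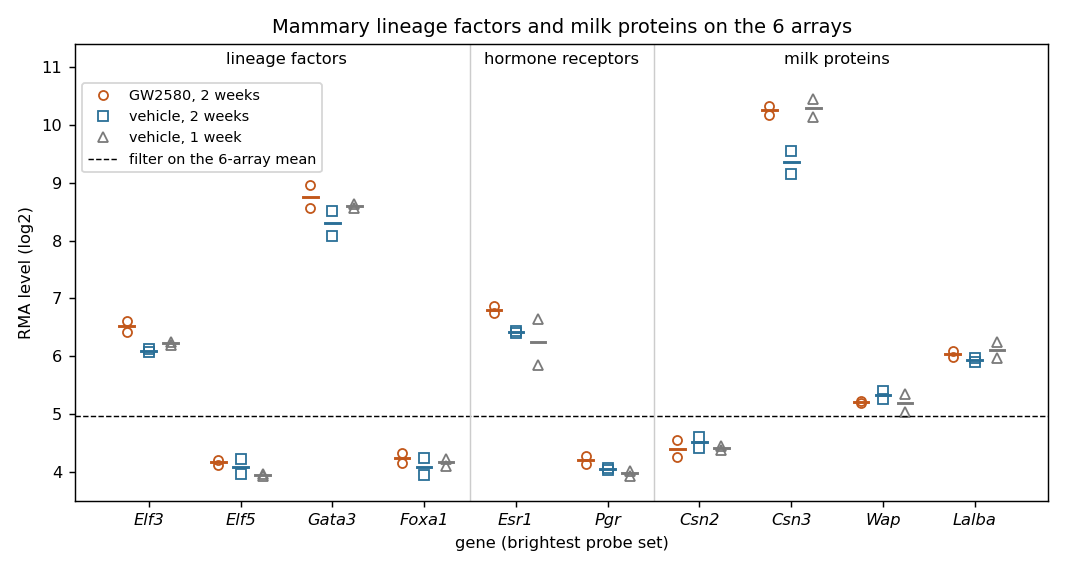
Log2 expression of the brightest probe set of each of the 10 genes on every array, with GW2580 left of 2-week and 1-week vehicle; points are arrays, short lines are group means and the dashed line is the filter at 4.97. Csn3 has 2-week vehicle arrays at 9.15 and 9.55, below the other 4 arrays, which lie between 10.14 and 10.46, and Elf5, Foxa1, Pgr and Csn2 lie under the filter on every array.

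Among the lineage factors, Gata3 read 8.95 and 8.57 log2 on the GW2580 arrays, 8.09 and 8.52 on the 2-week vehicle arrays, and 8.63 and 8.57 on the 1-week vehicle arrays. The 2-week vehicle arrays were the lowest pair, below all of the other 4 arrays, and 1 of them lay close to the rest. The difference was 0.46 (SE 0.19) for GW2580 against 2-week vehicle, with an unadjusted p of 0.0393 and a limma adjusted p of 0.251. For 2-week against 1-week vehicle it was -0.30 (SE 0.19, adjusted p 0.391), and neither passed. With 1 array left out at a time, these differences lay between 0.24 and 0.68 and between -0.51 and -0.08, the ends of both ranges set by leaving out replicate 1 or replicate 2 of 2-week vehicle. Gata3 also serves T cells and innate lymphoid cells. The lymphocyte and NK cell markers, 10 of 11 measured and 3 of these below the filter (Ms4a1, Ncr1 and Il7r), had mean levels of 5.59 and 5.50 on the GW2580 arrays, 5.46 and 5.48 on the 2-week vehicle arrays, and 5.65 and 5.62 on the 1-week arrays. Their part in the Gata3 values was not tested.

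Elf3 read 6.61 and 6.42 on the GW2580 arrays, 6.07 and 6.12 on the 2-week vehicle arrays, and 6.20 and 6.25 on the 1-week vehicle arrays. Both GW2580 arrays were above all vehicle arrays. GW2580 exceeded 2-week vehicle by 0.42 (SE 0.13, 95% interval 0.13 to 0.71), with an unadjusted p of 0.0106 and a limma adjusted p of 0.152. Against 1-week vehicle the difference was 0.29 (SE 0.13, adjusted p 0.294), and between the vehicle groups it was -0.13 (SE 0.13, adjusted p 0.609). None of the 3 passed an adjusted p of 0.05. Lung epithelium also makes Elf3 and Foxa1. Its 14 measured markers, none below the filter, averaged 6.96 and 6.40 on the GW2580 arrays, 6.89 and 6.90 on the 2-week vehicle arrays, and 7.27 and 6.97 on the 1-week arrays. These means join opposite patterns, with 5 of 14 markers positive and 9 negative for GW2580 against 2-week vehicle. Scgb1a1 read 10.91 and 7.59 with GW2580, 6.49 and 8.08 with vehicle at 2 weeks, and 11.31 and 9.59 at 1 week. Sftpc read 7.90 and 7.19, 9.98 and 9.25, and 8.33 and 9.29 in the same order. The part of these markers in the Elf3 values was not tested.

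Foxa1, a pioneer factor that opens chromatin for the oestrogen receptor, lay below the filter, with 4.33 and 4.15 on the GW2580 arrays, 3.94 and 4.24 on the 2-week vehicle arrays, and 4.11 and 4.22 on the 1-week arrays. Elf5 was also below it on both probe sets; the brighter read 4.21 and 4.12 with GW2580, 3.96 and 4.22 with vehicle at 2 weeks, and 3.96 and 3.92 at 1 week. When genes of any level were fitted, the adjusted p of Foxa1 and Elf5 lay between 0.500 and 0.877 over the 3 comparisons.

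Esr1, which encodes oestrogen receptor α, read 6.86 and 6.74 on the GW2580 arrays and 6.44 and 6.40 on the 2-week vehicle arrays. On the 1-week vehicle arrays it read 5.86 and 6.64, so that its widest spread within a group was there. Both GW2580 values exceeded the other 4. The difference was 0.38 (SE 0.23, limma adjusted p 0.421) against 2-week vehicle and 0.56 (SE 0.23, unadjusted p 0.0417, adjusted p 0.273) against 1-week vehicle. Between the vehicle groups it was 0.18 (SE 0.23, adjusted p 0.715), and it was -0.21 when replicate 1 of 1-week vehicle was left out. The other probe sets of Esr1 lay below the filter. Their differences between GW2580 and 2-week vehicle were 0.14 and 0.21. Pgr, the progesterone receptor gene and a target of oestrogen receptor α, lay below the filter on its 3 probe sets, of which the brightest read 4.13 and 4.28 with GW2580, 4.07 and 4.03 with vehicle at 2 weeks, and 4.02 and 3.93 at 1 week. Its adjusted p was at least 0.441 in each comparison when genes of any level were fitted.

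Csn3 was the member that changed between the vehicle groups. Its brighter probe set read 10.33 and 10.18 log2 on the GW2580 arrays, 9.15 and 9.55 on the 2-week vehicle arrays, and 10.14 and 10.46 on the 1-week vehicle arrays. The 2-week vehicle arrays stood below all others, and the GW2580 arrays lay within the range of the 1-week arrays. Group means were 10.25 ± 0.11 with GW2580, 9.35 ± 0.28 with vehicle at 2 weeks and 10.30 ± 0.22 with vehicle at 1 week (SD, n = 2 arrays each). Csn3 fell by 0.95 log2 units at 2 weeks relative to 1 week with vehicle (SE 0.18, limma adjusted p 0.0294), which is 1.93-fold (95% interval 1.45 to 2.56). Of all genes tested, 6.45% passed in this comparison, 3.74% higher and 2.71% lower, beside 1 of 6 tested members.

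GW2580 exceeded 2-week vehicle in Csn3 by 0.90 log2 units (SE 0.18, 95% interval 0.49 to 1.31), a 1.87-fold difference that did not pass (unadjusted p 0.000945, limma adjusted p 0.0783). In this comparison 0.367% of genes passed, 0.0688% higher and 0.298% lower, and 0 of 6 tested members did; 3 of the 6 had an unadjusted p under 0.05, as had 18.0% of all genes. GW2580 against 1-week vehicle differed by -0.05 in Csn3, with a 95% interval from -0.45 to 0.36 (adjusted p 0.931). There, 0.512% of genes passed, 0.359% higher and 0.153% lower, and no tested member passed; 1 of 6 had an unadjusted p under 0.05, as had 17.0% of all genes. The time and inhibitor comparisons share the 2-week vehicle arrays, so the Csn3 values of those arrays enter both differences.

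The call of Csn3 did not hold when replicate 1 of 2-week vehicle, or either replicate of 1-week vehicle, was left out. Such a fit leaves 1 array in a group. For the lost call, the influence of that array and the smaller fit cannot be told apart. The difference was -0.75 without replicate 1 of 2-week vehicle, and -1.10 and -0.79 without replicate 1 and replicate 2 of 1-week vehicle. With the array of raised 3′ to 5′ difference left out, the difference was -1.15. Markers of other cells also differed over these arrays. Fibroblast and smooth muscle markers averaged 6.85 and 6.36 on the GW2580 arrays, 6.53 and 6.56 on the 2-week vehicle arrays, and 7.54 and 6.79 on the 1-week arrays, with 10 of 12 above the filter and Myh11 and Postn below it, and their part in the Csn3 values was not tested. The second probe set of Csn3 averaged 3.70, below the filter, and differed by -0.25 between the vehicle groups (unadjusted p 0.0928) and by 0.10 between GW2580 and 2-week vehicle.

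**Figure D2:**
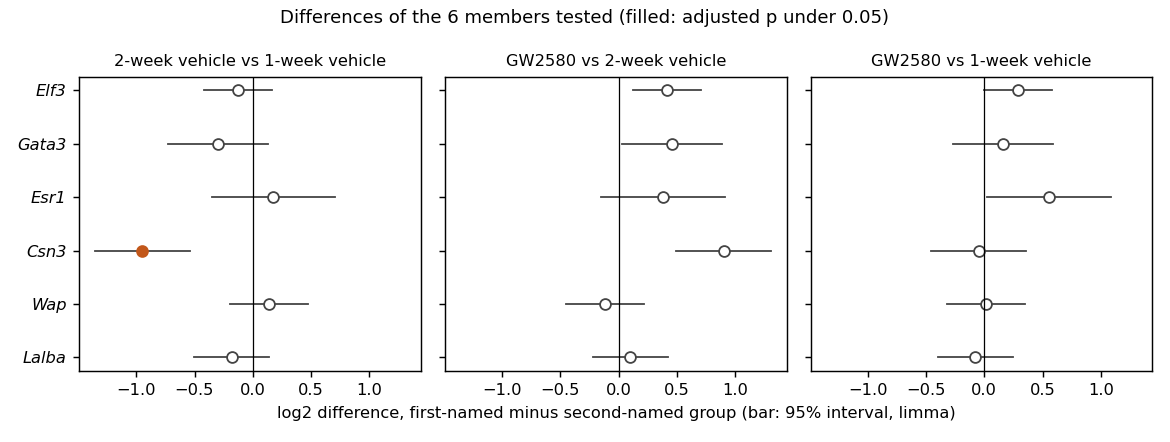
Log2 differences of the tested members in the 3 comparisons, with bars for 95% intervals from limma and filled points for an adjusted p under 0.05. Csn3 stands at -0.95 for 2-week against 1-week vehicle and 0.90 for GW2580 against 2-week vehicle, while the intervals of Wap and Lalba include 0 in every comparison.

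None of the other milk protein genes passed in any comparison. Lalba read 6.09 and 5.98 with GW2580, 5.90 and 5.96 with vehicle at 2 weeks, and 6.25 and 5.97 at 1 week, and differed by 0.10 (SE 0.14, adjusted p 0.744) between GW2580 and 2-week vehicle and by -0.18 (SE 0.14, adjusted p 0.501) between the vehicle groups. Wap read 5.19 and 5.23 with GW2580, 5.40 and 5.26 with vehicle at 2 weeks, and 5.35 and 5.04 at 1 week, and differed by -0.12 (SE 0.14, adjusted p 0.712) and 0.14 (SE 0.14, adjusted p 0.640) in the same comparisons. Csn2, whose promoter holds the STAT5 element printed above, read 4.25 and 4.54 with GW2580, 4.42 and 4.60 with vehicle at 2 weeks, and 4.45 and 4.38 at 1 week, all below the filter, and its adjusted p was at least 0.754 when genes of any level were fitted. Whether the change of Csn3 differed from those of these genes was not tested.

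Csn3 lies in the casein gene cluster on chromosome 5, and its neighbours, looked up after the Csn3 values were seen, include other casein genes and genes of salivary proteins. Csn1s1, the αS1-casein gene, averaged 5.03 and was tested, while Csn1s2a averaged 4.56 and Csn1s2b 3.62. Prr27 averaged 5.95 and Smr2 6.18. The 3 genes with the most similar pattern to Csn3 over the 6 arrays, by Pearson r among 13089 other tested genes, were Tmtc4 (0.995), Dusp1 (0.993) and Kcnk5 (0.991). Dusp1, a phosphatase gene induced by growth signals, read 12.87 and 12.84 with GW2580, 12.13 and 12.32 with vehicle at 2 weeks, and 12.82 and 13.03 at 1 week. These correlations are descriptions over the same 6 arrays.

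The 6 tested members had a median difference of -0.15 log2 between the vehicle groups, where all genes had 0.017; 2 were higher at 2 weeks. Between GW2580 and 2-week vehicle the members' median was 0.40 and that of all genes -0.05, and 5 of 6 members had positive differences. The groups did not overlap for 6 of 6 members in that comparison, against 49.8% of all genes, and for 4 of 6 between the vehicle groups, against 56.7%. The median size of the members' differences was 0.40 for GW2580 against 2-week vehicle, where all genes had 0.17, and 0.18 between the vehicle groups, where all genes also had 0.18. For GW2580 against 1-week vehicle the median was 0.09 among members and -0.02 among all genes, and 2 of 6 members did not overlap, against 46.7% of genes.

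The wider set of luminal transcription factors held 17 tested genes of 23, and 0 passed with limma in either the time or the inhibitor comparison. In each, 3 had an unadjusted p under 0.05. Of all genes, 23.6% had such a p in the time comparison and 18.0% in the inhibitor comparison, the background for this list and those below. Between GW2580 and 2-week vehicle 13 of 17 were positive, with a median of 0.19, and between the vehicle groups 6 of 17 were, with a median of -0.07. Id2, an inhibitor of basic helix-loop-helix factors needed for alveolar development, read 8.48 and 8.60 with GW2580, 7.80 and 7.84 with vehicle at 2 weeks, and 8.15 and 8.33 at 1 week. It differed by 0.72 between GW2580 and 2-week vehicle (limma adjusted p 0.0647, and 0.0483 at a common 75th percentile; 0.71 and 1.26 on its other probe sets) and by -0.42 between the vehicle groups (adjusted p 0.0914). Runx1, a factor of hormone-sensing luminal cells, differed by 0.50 with GW2580 (adjusted p 0.168). Sox9, which marks luminal progenitors, differed by 0.57 between the vehicle groups (adjusted p 0.0921, and 0.0384 with a replicate block).

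Genes of the prolactin and STAT5 pathway were measured for 12 tested genes of 14, and 0 passed in either comparison, while 5 had an unadjusted p under 0.05 with GW2580 and 6 between the vehicle groups, where 18.0% and 23.6% of all genes had. Between GW2580 and 2-week vehicle 9 of 12 were positive (median 0.20), and between the vehicle groups 7 of 12 were (median 0.22). The negative feedback genes Socs1, Socs2, Socs3 and Cish, which cytokines induce through STAT factors, differed in both directions without passing, though some passed under other settings. Cish read 7.80 and 7.27 with GW2580, 6.72 and 6.56 with vehicle at 2 weeks, and 7.27 and 6.91 at 1 week, a difference of 0.90 (SE 0.20, limma adjusted p 0.0919) for GW2580 against 2-week vehicle, which passed with a replicate block (adjusted p 0.0382). Socs3 differed by 0.77 (adjusted p 0.0861) in that comparison, with 0.51 and 0.65 on its other probe sets.

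Socs2 read 7.02 and 7.82 with GW2580, 8.48 and 8.17 with vehicle at 2 weeks, and 7.51 and 7.32 at 1 week, highest on the 2-week vehicle arrays. It differed by 0.91 between the vehicle groups (adjusted p 0.0694, and 0.0233 with only the 4 arrays compared) and by -0.91 between GW2580 and 2-week vehicle (adjusted p 0.130). Of its 5 other probe sets, 2 differed by 1.15 and 0.95 between the vehicle groups and 3 by -0.05 to 0.16. Socs1 read 7.14 and 6.65 with GW2580, 6.61 and 5.50 with vehicle at 2 weeks, and 7.71 and 7.22 at 1 week, and differed by -1.41 between the vehicle groups (adjusted p 0.0531, and 0.00911 with a replicate block). The lowest Socs1 value was on the 2-week vehicle array with the raised 3′ to 5′ difference. The transducers Stat5a, Stat5b and Jak2 had group means of 7.29, 7.50 and 9.49 with GW2580, 7.24, 7.65 and 9.10 with vehicle at 2 weeks, and 6.71, 7.25 and 9.59 at 1 week.

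**Figure D3:**
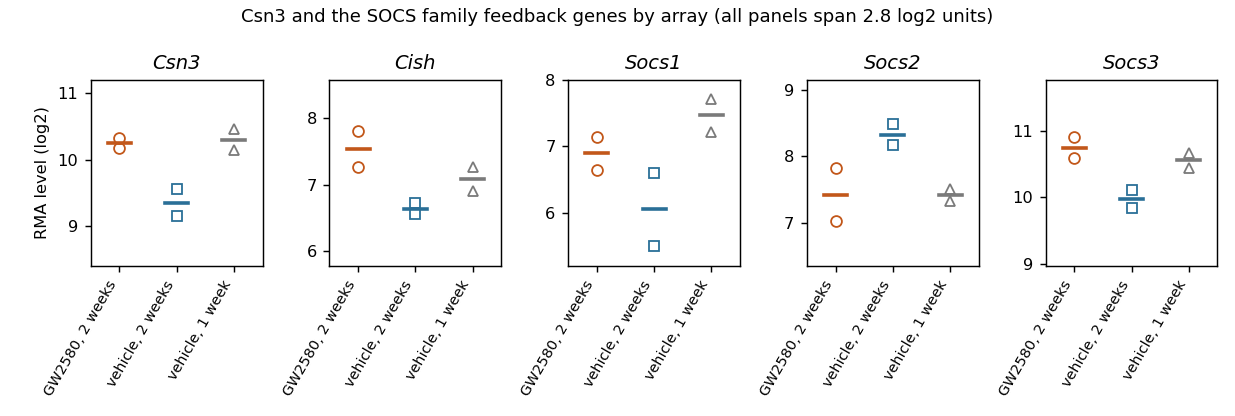
Log2 levels of Csn3, Cish, Socs1, Socs2 and Socs3 on each array, with GW2580 left of 2-week and 1-week vehicle; points are arrays and short lines are group means. Csn3, Cish, Socs1 and Socs3 are lowest on the 2-week vehicle arrays, and Socs2 is highest there at 8.48 and 8.17.

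Other milk protein and secretion genes had 10 tested genes of 22, with 0 passing in either comparison, 2 and 1 at an unadjusted p under 0.05, and medians of -0.03 for GW2580 against 2-week vehicle and 0.04 between the vehicle groups. Of genes of the milk fat globule, which many cell types also use, Mfge8 averaged 12.2, the lipid droplet gene Plin2 12.4 and the xanthine oxidoreductase gene Xdh 11.2. Glycam1, a mucin-like milk gene also made by lymph node venules, and Wfdc18 averaged 4.45 and 4.91, below the filter. Slc34a2, a phosphate transporter of mammary and alveolar type II lung cells, read 6.35 and 6.73 with GW2580, 7.31 and 7.21 with vehicle at 2 weeks, and 6.56 and 6.94 at 1 week, a difference of -0.72 for GW2580 (adjusted p 0.110). Muc1, the apical mucin, differed by -0.53 (adjusted p 0.177). Of the 14 lung epithelium markers measured, 2 passed with limma, Sftpa1 and Sftpd, both lower with GW2580 than with vehicle at 2 weeks. Of all genes, 0.367% passed there. In this comparison 9 of the 14 were negative and 5 positive (median -0.28). An unadjusted p under 0.05 was found for 8 of them, where 18.0% of all genes had one. Sftpc differed by -2.07, Sftpd by -1.12 and Napsa by -0.59, while Scgb1a1 differed by 1.97. Between the vehicle groups 1 of the 14 passed, Sftpd, higher by 0.89 at 2 weeks (limma adjusted p 0.0251). Of all genes, 6.45% passed in that comparison, and 9 of the 14 markers were positive and 5 negative. The part of these markers in the Slc34a2 and Muc1 values was not tested.

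Targets of the oestrogen and progesterone receptors had 10 tested genes of 14, and 0 passed in either comparison (1 in each at an unadjusted p under 0.05), with medians of 0.10 for GW2580 against 2-week vehicle and 0.07 between the vehicle groups. Rara, a retinoic acid receptor gene, differed by 0.55 with GW2580 (adjusted p 0.265), or by 0.17 when the 2-week vehicle array with the raised 3′ to 5′ difference was left out, and Tff1, the trefoil peptide gene, by 0.24 (adjusted p 0.404). Between the vehicle groups the corepressor gene Nrip1 differed by 0.42 (adjusted p 0.120), though 1 of its 5 other probe sets gave -0.53, and the cyclin gene Ccnd1 by -0.35 (adjusted p 0.216).

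Luminal structure genes held 10 tested genes of 16. Between the vehicle groups 1 passed as lower, as did 2.71% of all genes. There, 2 of 10 had an unadjusted limma p under 0.05, as had 23.6% of all genes. Cd24a, a surface protein used to sort luminal cells, read 6.66 and 6.62 with GW2580, 6.23 and 6.90 with vehicle at 2 weeks, and 7.86 and 7.45 at 1 week, and fell by 1.10 (SE 0.23, limma adjusted p 0.0360). Its other probe sets gave -0.98 and -0.97. In all, 9 of 10 differences were negative, with a median of -0.28. Between GW2580 and 2-week vehicle 0 of 10 passed (1 at an unadjusted p under 0.05, median 0.07), and Krt19 differed by 0.94 (adjusted p 0.195) and Aldh1a3, an aldehyde dehydrogenase gene of luminal progenitors, by -0.30 (adjusted p 0.351; 0.11 and 0.05 on its other probe sets).

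Basal and myoepithelial genes had 11 tested genes of 15. Between the vehicle groups 10 of 11 were negative (median -0.11), and 1 passed as lower, as did 2.71% of all genes. There, 2 of 11 had an unadjusted limma p under 0.05, as had 23.6% of all genes. Procr, the protein C receptor gene, which marks a multipotent basal cell, read 11.04 and 10.77 with GW2580, 10.70 and 10.86 with vehicle at 2 weeks, and 11.84 and 11.54 at 1 week, and fell by 0.91 (SE 0.16, adjusted p 0.0249). With GW2580, 0 of 11 passed (1 at an unadjusted p under 0.05, median 0.03). Egfr differed by 0.37 (adjusted p 0.270; -0.20 to 0.24 on its other probe sets) and the integrin gene Itgb4 by 0.30 (adjusted p 0.408). Leaving out replicate 1 of 1-week vehicle ended the calls of Cd24a and Procr, as did leaving out replicate 1 of 2-week vehicle. The call of Cd24a also ended without replicate 2 of 1-week vehicle, and that of Procr without replicate 2 of 2-week vehicle. Such fits leave 1 array in a group, so for the ended calls the influence of the array and the smaller fit cannot be told apart. With 1 array left out at a time, the difference lay between -1.43 and -0.76 for Cd24a and between -1.05 and -0.76 for Procr. Of 10 tested fibroblast and smooth muscle markers, which share Acta2 with the basal list, 9 were negative and 1 positive between the vehicle groups (median -0.68). Their part in the Cd24a and Procr values was not tested.

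**Figure D4:**
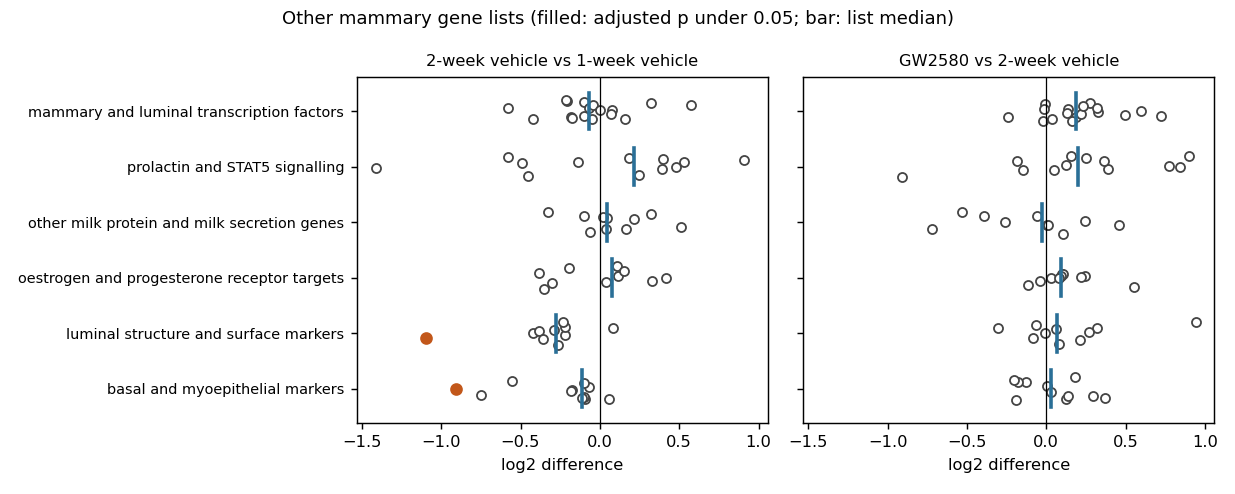
Log2 differences of the tested genes in the 6 mammary gene lists, for GW2580 against 2-week vehicle (right) and for 2-week against 1-week vehicle (left); points are genes, filled where the limma adjusted p was under 0.05, and short lines are medians. The luminal transcription factors have medians of 0.19 and -0.07 in these comparisons, and the luminal structure genes 0.07 and -0.28.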

How the data were processed

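Tumour cells from 6 samples were profiled on whole-genome mouse oligonucleotide arrays from 2 µg of RNA each. The authors deposited log2 values for 45101 probe sets. RMA made them, per the submitters' processing notes, by background correction, quantile normalisation and a summary per probe set, with no version stated. A shift shared by most genes is hidden by quantile normalisation. Tests left out 64 control probe sets. By the platform annotation, 34945 of 45037 probe sets had 1 gene symbol, 932 several and 9160 none, and 34741 matched the RefSeq table of GRCm38.p6. The brightest probe set stood for a gene, and genes above the 40th percentile (a mean of 4.97) were tested. Array medians lay between 5.57 and 5.63, and the number of arrays limits the precision.

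limma 3.58.1 in R 4.3.3 fitted a mean per group over all 6 arrays, with 3 residual degrees of freedom (eBayes without trend, not robust). P-values were Benjamini-Hochberg adjusted over 13090 genes, and a gene passed at an adjusted p under 0.05. The fit was tested on simulated data. The members and gene lists were chosen with earlier results of these data known. Named genes were all 10 members with every probe set, per list and per comparison up to 4 genes that passed or otherwise the 2 with the smallest p, and the 3 genes most like a member that passed; levels of other genes in the text were chosen after their values were seen. No label says that a replicate number marks a shared mouse, litter or day, and the replicate number was not a term. Alternatives were no filter, every probe set, a common 75th percentile, only the 4 arrays compared, eBayes with trend and robust, a replicate block and leaving out each array.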

Additional observations from a re-analysis of the deposited data

How the results depend on the processing

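With 2 arrays a group, several counts changed when 1 array was left out. The highest count of all genes between the vehicle groups came from leaving out a GW2580 array, which is outside that comparison. Leaving out 1 array at a time, the members that passed between the vehicle groups ranged from 0 to 1, and all genes from 0 to 1059. Genes that passed for GW2580 against 2-week vehicle ranged from 0 to 167, and against 1-week vehicle from 0 to 169. For GW2580 against 2-week vehicle 48 genes passed, but 74 without a filter, 193 with every probe set, 0 with only the 4 arrays compared (2120 at an unadjusted p under 0.05) and 131 with trend and robust moderation, where 1 member, Csn3, passed (adjusted p 0.0428). Against 1-week vehicle 67 passed, but 36, 24 and 139 with every probe set, the 4 arrays and trend and robust moderation. With the replicate block 154 genes passed for GW2580 against 2-week vehicle, 182 against 1-week vehicle and 1223 between the vehicle groups; Csn3 had adjusted p values of 0.0530 and 0.0188 for the inhibitor and time comparisons. Deviations of same-numbered arrays correlated at 0.292 between GW2580 and 1-week vehicle, but at 0.0094 between GW2580 and 2-week vehicle and 0.0022 between the vehicle groups, so the numbers were not taken as pairs. The cause was not tested.

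Of the members' differences, those that turned sign under the alternatives run did so when an array was left out, and none of them had passed. Between the vehicle groups Esr1 ranged from -0.21 to 0.56 and Wap from -0.0197 to 0.29. For GW2580 against 1-week vehicle Gata3 ranged from -0.0300 to 0.35, Csn3 from -0.20 to 0.11, Wap from -0.14 to 0.17 and Lalba from -0.22 to 0.0619. Csn3 lay between 0.70 and 1.10 for GW2580 against 2-week vehicle. Between the vehicle groups, Csn3 passed under every alternative that kept all arrays of both groups (adjusted p 0.0142 to 0.0421). Of the list genes named, Cd24a did not pass with every probe set tested (adjusted p 0.0562). Others passed under alternatives that kept all arrays compared: between the vehicle groups Socs1 (adjusted p 0.00911) and Sox9 (0.0384) with the replicate block and Socs2 (0.0233) with only the 4 arrays, and for GW2580 against 2-week vehicle Cish (0.0382) and Id2 (0.0477) with the block and Id2 (0.0483) at a common 75th percentile. Leaving out 1 array at a time, the GW2580 differences of Krt19 lay between 0.51 and 1.37, of Runx1 between 0.31 and 0.69, of Egfr between 0.17 and 0.57 and of Itgb4 between 0.12 and 0.47.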
